A study of Mus musculus and Homo sapiens with 22 samples.

Results

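The 8 genes described here encode the YTH and IGF2BP readers of N6-methyladenosine (m6A): Ythdf1, Ythdf2, Ythdf3, Ythdc1, Ythdc2, Igf2bp1, Igf2bp2 and Igf2bp3. They were chosen by name from 56196 genes in the count files. In mouse embryonic stem cells (mESCs) 40 of 25456 listed m6A sites lay in their exons, in mouse heart at 1 µg of RNA 45 of 46421, and in HEK293T cells, a human embryonic kidney line, 47 of 36556 lay in the human orthologs. RNA-seq was made from 3 libraries of wild-type (WT) mESCs and 3 of mESCs with a knockout (KO) of Mettl3, the catalytic subunit of the main m6A methyltransferase of mRNA. Both lines came from an earlier study, their strain is not given in the sources used here, and neither received a treatment. m6A sites were mapped by miCLIP2, in which an antibody against m6A is crosslinked to RNA and reverse transcription stops at the modified base, and peaks at adenosines were then sorted by m6Aboost, a trained classifier, into m6A and background. The mESC list was called from peaks of WT cells, the HEK293T list rests on 4 replicates of untreated cells, and each of 4 heart lists (1 µg, 300, 100 and 50 ng) on 1 library of purchased poly(A)+ RNA from heart tissue, whose age and strain are not given in the sources used here. The authors trained m6Aboost on mESC peaks sorted by their change between WT and Mettl3 KO. The mESC list thus holds sites of the training data and is not independent of the KO.

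m6A acts largely through proteins that bind it. The YTH domain holds the methylated base in an aromatic pocket. Of the proteins that carry it, the 3 cytoplasmic paralogs Ythdf1, Ythdf2 and Ythdf3 are best known for promoting decay of m6A-containing mRNA and, in some reports, for effects on translation, while Ythdc1 is nuclear and acts in splicing and export, and Ythdc2 is a helicase best known from meiosis. Igf2bp1, Igf2bp2 and Igf2bp3 carry RRM and KH domains, bind many mRNAs and are described as stabilising m6A-modified ones. Igf2bp1 and Igf2bp3 are known as oncofetal proteins, abundant in embryonic cells and low in most adult tissues, whereas Igf2bp2 is found more widely.

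Sequences of sites are shown first, since the position of sites is the main result on these genes. They are sites that recurred at matching places of paralogs or orthologs, and 3 heart sites in Ythdc1 that are not such matches. Each sequence is 21 nt of the transcribed strand, read from GRCm38 or GRCh38, with the site in the middle and the 5 nt around it in capitals. The first 4 are Ythdf1 and Ythdf2 sites of mESCs that fell on the same columns of the coding alignment, the next 3 are sites shared by mouse and human at a conserved position, and the last 5 are the matching first-exon sites of IGF2BP1 and IGF2BP3 and 3 heart sites in Ythdc1.
Ythdf1, chr2:180910998-180911018, minus strand: atgggagtGGACAtttctgtg
Ythdf2, chr4:132204443-132204463, minus strand: acggcagtGGACActtctgtg
Ythdf1, chr2:180910927-180910947, minus strand: tggtctcaGGACAagtggaag
Ythdf2, chr4:132204372-132204392, minus strand: tggtcccaGGACAaatggaag
Ythdf2, chr4:132204327-132204347, minus strand: tttgtgaaGGACGttcccaat
Ythdf1, chr2:180911666-180911686, minus strand: caatggtgGGACAaatgtaaa
YTHDF1, chr20:63203266-63203286, minus strand: caacggtgGGACAaatgtgaa
IGF2BP1, chr17:48997863-48997883, plus strand: gccttcgtGGACTgcccggac
IGF2BP3, chr7:23469973-23469993, minus strand: gcgttcgtGGACTgcccggac
Ythdc1, intron 11, chr5:86828898-86828918, plus strand: taccttatGAACTaaacagca
Ythdc1, intron 11, chr5:86829161-86829181, plus strand: cttaaaaaGGACTttgtcgag
Ythdc1, last exon, chr5:86835861-86835881, plus strand: tgtgatcgGGACAgagaccga

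Gene counts per RNA-seq library lay between 22746733 and 27254245. Mettl3 itself still gave reads in the KO, at 26.4, 26.6 and 28.9 CPM (counts scaled to a common library size with TMM factors) in WT against 18.4, 22.6 and 16.9 CPM in KO. Its log2 fold change of −0.50 (SE 0.14; edgeR adjusted p 0.0134) did not pass the threshold used below, and counts over the whole gene do not show what part of the transcript was left. The paper measured m6A in poly(A)+ RNA by mass spectrometry and reported that the Mettl3 KO mESCs had lost most of it. The pluripotency markers Pou5f1, Nanog and Sox2 were at 346.9 CPM or more in every WT and KO library, but of the 8 pluripotency markers 2 fell in the KO, Dppa5a from between 773 and 1086 CPM to between 284 and 313 CPM and Tdgf1 from between 763 and 1096 CPM to between 189.8 and 272 CPM. The part of this difference in the reader results was not tested. Of 18 feeder fibroblast markers, 17 had a row in the files, and Fap was at 0 in all 6 libraries. The summed level of the 17 was 12.9 to 18.2 CPM in WT and 19.0 to 21.3 CPM in KO. Of these, 7 were tested with the threshold used below, and their median log2 fold change was 1.08. Thy1 was called higher and Pdgfrb lower in the KO. The 2 lines also differed in Y-linked transcripts (4 genes with mean levels of at most 0.0254 CPM in WT and 29.7 to 69.2 CPM in KO), so that Mettl3 genotype and other differences between the lines cannot be told apart. In bulk RNA, a change in the share of a cell type and a change in RNA per cell cannot be told apart either.

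The first question was whether the readers changed in Mettl3 KO cells. 4 of the 8 changed, 3 of them higher and 1 lower in the KO, against a background of 29.7% of 15731 tested genes called in either direction, 17.1% higher and 12.6% lower (edgeR's quasi-likelihood test, Benjamini-Hochberg adjusted p of at most 0.01). Ythdf1, Ythdf2 and Ythdc1 rose, Igf2bp3 fell, and Ythdf3, Ythdc2, Igf2bp1 and Igf2bp2 did not pass. The median log2 fold change of the 8 genes was 0.25, beside −0.02 over all genes tested.

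Ythdf2, the family member best known for mRNA decay, had 82.9, 77.8 and 89.2 CPM in WT and 201, 214 and 204 CPM in KO. All KO libraries lay far above all WT libraries. Its mean rose from 83.3 ± 5.72 to 206 ± 6.60 CPM (SD, n = 3), a log2 fold change of 1.31 (SE 0.10; edgeR adjusted p 1.35e-05), and it was the only reader past a 2-fold change, which 10.7% of tested genes passed upward. Its change was above that of 91.4% of all genes tested. Ythdf1 had 104, 103 and 123 CPM in WT and 199, 193 and 200.1 CPM in KO. The groups did not overlap, as was true of 56.1% of all tested genes. Its log2 fold change was 0.85 (SE 0.11; edgeR adjusted p 0.000195). Ythdf3 was at 136, 132 and 127 CPM in WT and 156, 157 and 159 CPM in KO. The groups did not overlap here either, but the log2 fold change was 0.26 (SE 0.094) and the edgeR adjusted p of 0.0459 did not pass the threshold of 0.01.

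Ythdc1, the nuclear reader, had 136, 124 and 92.8 CPM in WT and 212, 209.9 and 208 CPM in KO. The KO libraries lay close together and above all WT libraries, of which replicate 3 was low. The log2 fold change was 0.84 (SE 0.14; edgeR adjusted p 0.000862), and it lay between 0.69 and 0.95 when any 1 library was left out. Ythdc2, which shares the YTH domain but little else with Ythdc1, was at 34.1, 34.2 and 43.3 CPM in WT and 32.9, 39.7 and 34.7 CPM in KO. Its groups overlapped, with a log2 fold change of −0.06 (SE 0.13; edgeR adjusted p 0.749) whose sign changed with the scaling and with the libraries left out.

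Of the Igf2bp genes, only Igf2bp3 passed the test. It had 126, 124 and 151 CPM in WT and 77.3, 88.3 and 75.0 CPM in KO. All KO libraries were below all WT libraries, and its level fell by 0.74 on the log2 scale (SE 0.12; edgeR adjusted p 0.000716). Igf2bp1 spread widely in WT, with 363, 268 and 423 CPM against 402, 457 and 386 CPM in KO. The groups overlapped (log2 fold change 0.24, SE 0.16; edgeR adjusted p 0.246). The value was 0.069 without WT replicate 2 and 0.39 without WT replicate 3 (edgeR adjusted p 0.697 and 0.0425). Igf2bp2 was at 151, 181 and 202 CPM in WT and at 167, 169.8 and 160.2 CPM in KO, again with overlap (−0.10, SE 0.12; edgeR adjusted p 0.511), and with scaling by library size alone its value was 0.0022.

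**Figure D1:**
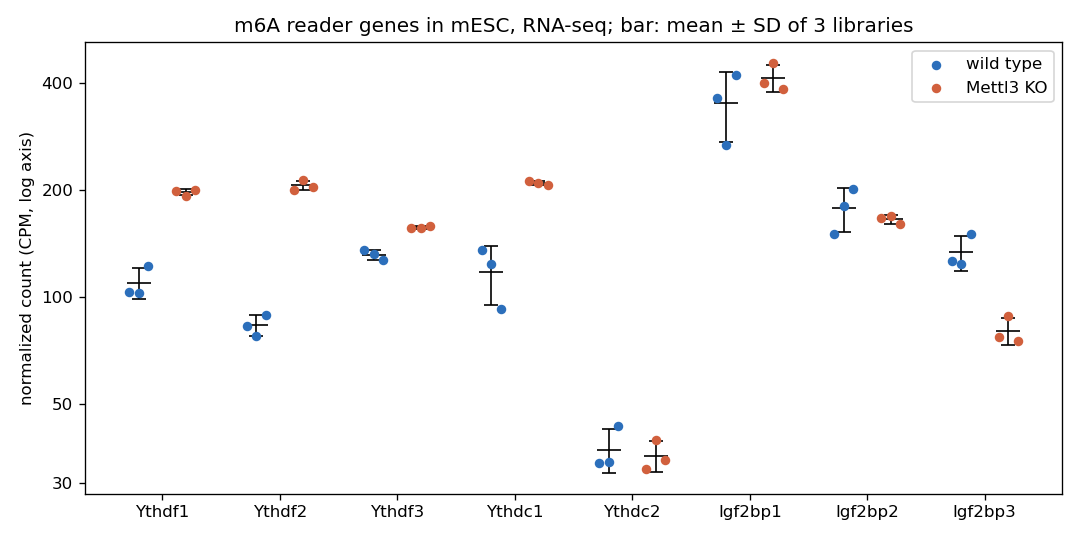
Normalized counts (CPM, log axis) of the 8 reader genes in 3 WT and 3 Mettl3 KO libraries. Points are libraries, and black marks give the mean with the SD. KO points lie above all WT points for Ythdf1, Ythdf2, Ythdf3 and Ythdc1 and below them for Igf2bp3, and the groups overlap for Ythdc2, Igf2bp1 and Igf2bp2.

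Other genes of the pathway were counted for comparison. The shares of all tested genes called, 17.1% higher and 12.6% lower, apply to each list. Of 9 writer complex genes 6 rose and 0 fell (median log2 fold change 0.60), and Fto was the 1 of 2 demethylase genes that fell. Of 13 other proteins proposed to read m6A, such as Hnrnpc, Fmr1 and Elavl1, 0 rose and 6 fell (median −0.43). Of 13 partners of the readers in decay and translation, 0 rose and 4 fell (Cnot1, Cnot7, Upf1 and Pabpc1; median −0.33). Cnot1 and Cnot7 belong to the deadenylase complex that Ythdf2 recruits. The lists were not tested against each other.

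The gene whose level followed each reader most closely over the 6 libraries was found by Pearson's r of log2 CPM. It was Rnd3 for Ythdf1, Tcf12 for Ythdf2, Aldh3a1 for Ythdf3, Pm20d2 for Ythdc1 and Zc3h7b for Igf2bp3, with r between 0.998 and 0.9996. As the 6 libraries form 2 groups, many genes shared such patterns, from 597 to 1625 with r above 0.95 for these 5 readers. The 3 readers with overlapping groups had fewer, 11 for Ythdc2 (closest Akna), 23 for Igf2bp1 (Rngtt) and 14 for Igf2bp2 (Smc6).

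Paralogs were next compared within each library, where the ratio of 2 genes needs no scaling. The log2 ratio of Ythdf2 to Ythdf3 counts was −0.71, −0.76 and −0.51 in WT and 0.36, 0.45 and 0.36 in KO. Ythdf2 thus gave fewer reads than Ythdf3, not corrected for length, in every WT library and more in every KO library. The difference was 1.05 (SE 0.082). Ythdf1 moved less than Ythdf2, and their log2 ratio went from 0.32, 0.40 and 0.46 to −0.012, −0.15 and −0.030, a difference of −0.46 (SE 0.058). Ythdf1 over Ythdf3 changed sign in the other sense, from −0.39, −0.36 and −0.052 in WT to 0.35, 0.30 and 0.33 in KO, a difference of 0.60 (SE 0.11). The Ythdf paralogs therefore did not move by the same amount in these libraries.

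Ythdc1 over Ythdc2 went from 1.99, 1.85 and 1.10 to 2.69, 2.40 and 2.58, a difference of 0.91 (SE 0.29) to which WT replicate 3 contributed most. Igf2bp1 over Igf2bp3 rose from 1.52, 1.12 and 1.49 to 2.38, 2.37 and 2.36, a difference of 1.00 (SE 0.13), and Igf2bp2 over Igf2bp3 from 0.25, 0.55 and 0.42 to 1.11, 0.94 and 1.09, a difference of 0.64 (SE 0.10). The groups of the remaining pair, Igf2bp1 over Igf2bp2, overlapped, with a difference of 0.35 (SE 0.22) that was 0.15 without WT replicate 2 and 0.50 without WT replicate 1. In 6 of the 7 pairs the groups did not overlap and the two-sided exact permutation test over libraries gave p = 0.1, the smallest p that 3 against 3 libraries allow (0.117 after Benjamini-Hochberg adjustment over the 7 pairs). The share over ratios of other gene pairs was not computed, and the groups of 56.1% of single tested genes did not overlap in CPM. Within a family of 3 paralogs the ratios are not independent of each other. For Igf2bp1 over Igf2bp2 the exact p was 0.2.

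**Figure D2:**
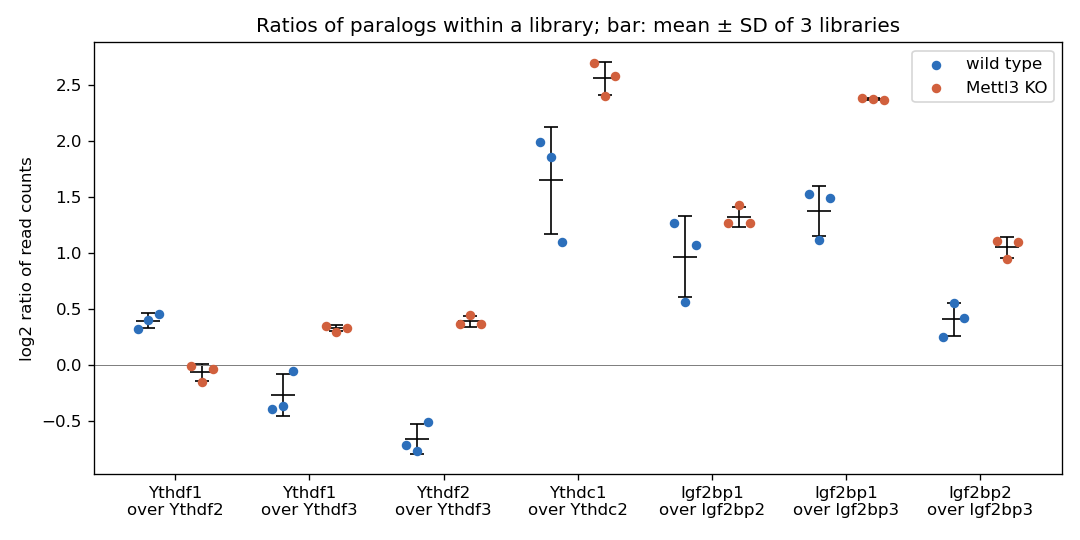
Log2 ratio of the read counts of 2 paralogs in each of 3 WT and 3 Mettl3 KO libraries, for 7 pairs. Points are libraries and black marks give the mean with the SD. The ratios of Ythdf2 and of Ythdf1 to Ythdf3 lie below 0 in WT and above 0 in KO, and only Igf2bp1 over Igf2bp2 has overlapping groups.

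Levels of different genes were compared only per kb of exon, with the exons of all annotated transcripts merged. In WT the order was Igf2bp1 (36.3 ± 8.08 CPM per kb, SD, n = 3), Ythdf1 (33.1 ± 3.36), Ythdf3 (24.6 ± 0.822), Igf2bp2 (24.0 ± 3.47), Ythdf2 (18.2 ± 1.25), Igf2bp3 (16.4 ± 1.82), Ythdc1 (8.60 ± 1.62) and Ythdc2 (4.19 ± 0.592). The WT libraries of Igf2bp1 and Ythdf1, of Ythdf3 and Igf2bp2, and of Ythdf2 and Igf2bp3 overlapped, so these neighbours were not separated, while the other neighbours did not overlap. The order depended on the length used. With the longest coding transcript it was Ythdf1 (48.3 ± 4.91 CPM per kb), Igf2bp2 (45.6 ± 6.59), Igf2bp1 (42.0 ± 9.33), Ythdc1 (39.7 ± 7.49), Igf2bp3 (30.7 ± 3.42), Ythdf3 (26.7 ± 0.894), Ythdf2 (20.2 ± 1.39) and Ythdc2 (5.16 ± 0.728), where neighbours among the first 5 overlapped and the later neighbours did not. Ythdc1 thus stood below Igf2bp3 in one order and above it in the other. Its merged exons span 13651 nt, including annotated retained introns, against 2960 nt for its longest coding transcript.

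Within the Ythdf family, Ythdf1 held 43.6 ± 2.26% of reads per kb in WT and 44.4 ± 0.951% in KO. Ythdf2 went from 24.0 ± 0.512% to 33.7 ± 1.02% and Ythdf3 from 32.4 ± 2.51% to 21.9 ± 0.105% (SD, n = 3 each). Ythdf2 and Ythdf3 thus changed places, with ranges that did not overlap, while the share of Ythdf1 overlapped between groups. Ythdc1 held 66.8 ± 7.52% of the Ythdc family in WT and 79.3 ± 1.66% in KO. Of the Igf2bp family, Igf2bp3 held 21.4 ± 0.964% in WT and 13.1 ± 0.256% in KO, Igf2bp1 47.1 ± 5.23% and 57.1 ± 1.08%, and Igf2bp2 31.5 ± 4.40% and 29.9 ± 1.33%. With the length of the longest coding transcript the exchange of Ythdf2 and Ythdf3 was again seen (21.2% to 29.6%, and 28.2% to 18.9%), but in WT Igf2bp2 then held more than Igf2bp1 (38.7% against 35.3%).

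**Figure D3:**
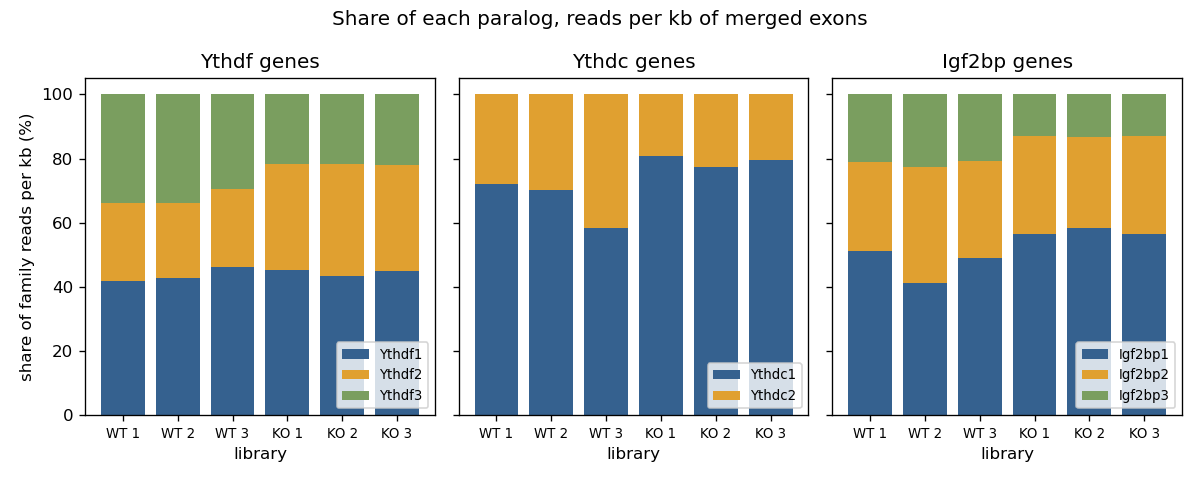
Share of each paralog in the reads per kb of its family (in %, y axis) in each of 3 WT and 3 KO libraries, with reads per kb of merged exons. Ythdf2 lies at 23.4 to 24.3% in WT and 33.0 to 34.9% in KO, and Igf2bp3 at 20.6 to 22.5% in WT and 12.9 to 13.4% in KO.

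The second question was where m6A sites lie in the reader transcripts. The 3 Ythdf genes carried most of them. In mESCs Ythdf1 had 9 sites, Ythdf2 9 and Ythdf3 11, together 29 of the 40. These numbers stand high among the 6526 genes with at least 1 exonic site, whose median was 3, since 90.7% of those genes had fewer sites than Ythdf1 or Ythdf2 and 94.8% fewer than Ythdf3. Ythdc1 had 3 sites, Igf2bp2 4, Igf2bp3 3 and Igf2bp1 1, and Ythdc2 had 0. Per kb of merged exon, Ythdf1 had 2.71 sites, Ythdf3 2.05 and Ythdf2 1.97, and the other readers with a site had 0.103 to 0.540. Igf2bp1 had its 1 site at a WT level of 36.3 CPM per kb and Ythdf2 its 9 at 18.2 CPM per kb, while Ythdc2, with 0 sites, had the lowest level of the 8. How far the number of sites goes with the level was not tested. The lists hold no depth or replicate values, and a gene without a listed site is not shown to lack m6A.

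Among all tested genes, those with at least 9 mESC sites, the number of Ythdf1 and Ythdf2, numbered 588. Of these 26.9% were called higher and 7.65% lower in the KO, with a median log2 fold change of 0.20. Of the 9347 tested genes with no site, 16.9% were higher and 11.4% lower (median −0.03), and of the 4579 with 1 to 4 sites 14.7% were higher and 16.7% lower (median −0.06). Genes with more than 4 but fewer than 9 sites were not counted in these classes. The paper states that miCLIP2 signal depends strongly on how abundant a transcript is. RNA levels of the classes were not compared, so the number of sites and the level are not separated here. The list also comes from a classifier trained on the change between WT and KO. Ythdf2 lay above 97.4% of the 588 genes, which include the Ythdf genes themselves. It also lay above 97.7% of the genes with 1 to 4 sites and 87.2% of those with no site. Igf2bp3 and Ythdc1, with 3 sites each, belong to the class with 1 to 4 sites, and Ythdc2 to that with 0.

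In all 3 Ythdf genes most sites lay in the coding sequence. Each gene has 1 long coding exon, of 1521 nt in Ythdf1, 1584 nt in Ythdf2 and 1599 nt in Ythdf3, which encodes most of the protein. All 27 coding sites of mESCs fell in it, and the other 2 were in the 3′ UTR of Ythdf3. Heart gave 31 coding sites and 4 in the 3′ UTR of Ythdf3, and HEK293T 29 coding sites and 2 in the 3′ UTR of YTHDF2, and again every coding site was in the long exon. The coding share of Ythdf sites was 93.1% in mESCs (Wilson 95% interval 78.0 to 98.1%), 88.6% in heart (74.0 to 95.5%) and 93.5% in HEK293T (79.3 to 98.2%), while it was 51.7%, 51.2% and 52.8% of all placed sites of these lists. Within 400 nt of the stop codon, where sites of most mRNAs crowd, lay 27.6% of Ythdf sites in mESCs (14.7 to 45.7%), 34.3% in heart (20.8 to 50.8%) and 22.6% in HEK293T (11.4 to 39.8%), against 47.0%, 45.5% and 46.6% of all sites. The intervals cover counting error only. Transcript region and sequence are inputs of m6Aboost, so these shares are not independent of the classifier.

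**Figure D4:**
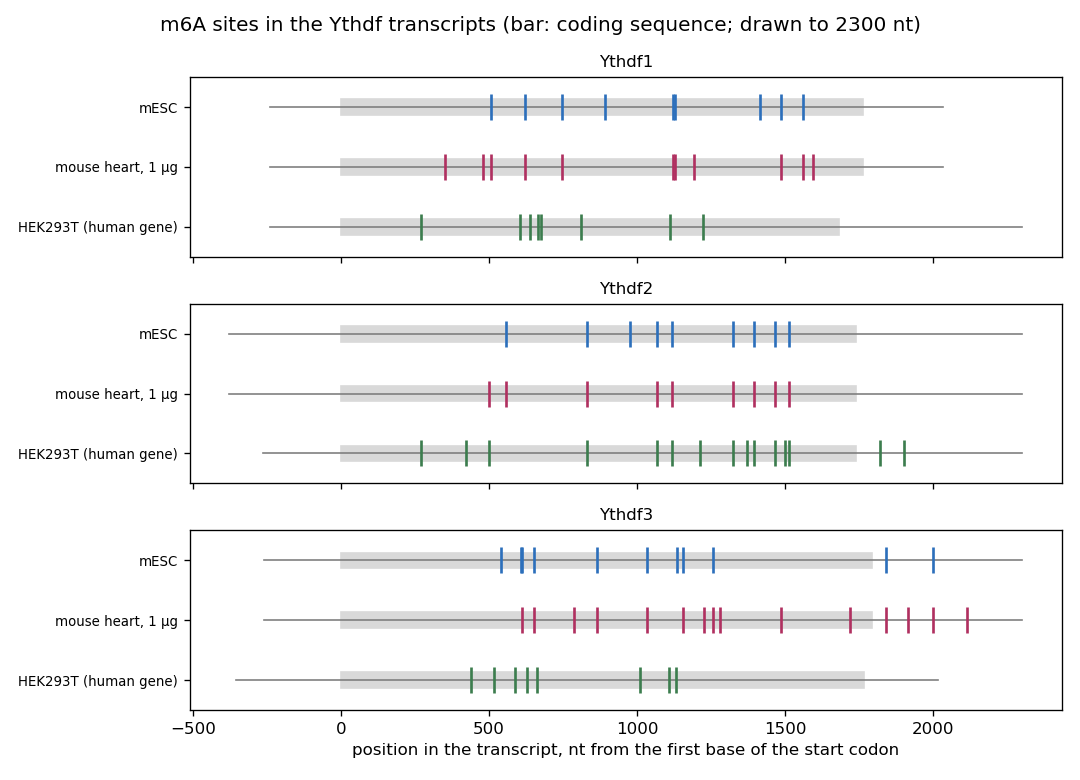
m6A sites (ticks) in Ythdf1, Ythdf2 and Ythdf3 in mESCs, in mouse heart at 1 µg and, for the human genes, in HEK293T cells, by distance in nt from the start codon along the longest coding transcript. Grey boxes are coding sequence and lines are UTRs, drawn to at most 2300 nt after the start codon. All ticks within the boxes belong to the long exon, and ticks beyond the boxes are 3′ UTR sites of Ythdf3 in mouse and of YTHDF2 in HEK293T.

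The motifs that could carry a site were counted next, as DRACH (A, G or T, then A or G, then A, C, and A, C or T) on the transcribed strand, including overlapping matches. The long exons of the 3 Ythdf genes hold 108 DRACH motifs, of which 25 (23.1%) had a site in mESCs and 29 (26.9%) in heart. In HEK293T it was 24 of 99 (24.2%). Of 18 DRACH motifs in other coding exons 0 had a site in mESCs or heart, and of 99 in the 3′ UTRs 2 (2.02%) in mESCs and 4 (4.04%) in heart. Over all genes with a site, 4.33% of coding DRACH motifs and 5.03% of those in 3′ UTRs had a site in mESCs. In coding parts of internal exons of at least 1000 nt, a comparison chosen after these values were seen, the share was 8.80% over 502 genes in mESCs, 13.4% over 676 genes in heart and 9.63% over 524 genes in HEK293T. The 3′ UTR of Ythdf2, of 2012 nt, holds 40 DRACH motifs and carried 0 sites in both mouse lists, while YTHDF2 had 2 in HEK293T, 1 of which scored above 99.8% of that list.

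Outside the Ythdf genes the placement differed. Of 11 mESC sites in the other readers 7 were in the 3′ UTR, 3 in the coding sequence and 1 in the 5′ UTR. All 4 Igf2bp2 sites were in its 3′ UTR, 62 to 1677 nt after the stop codon, and the single site of Igf2bp1 lay 52 nt after its stop codon with a score of 0.912, above 93.3% of the list. Igf2bp3 had 1 site 45 nt after the stop codon, 1 at nt 5 of the coding sequence and 1 in the 5′ UTR. The sites of Ythdc1 lay 37 and 31 nt before and 156 nt after the stop codon, all in its last exon.

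38 of the 40 mESC sites were at DRACH (95%, Wilson 95% interval 83.5 to 98.6%), beside 92.9% of all sites, and 43 of 45 in heart and 42 of 47 in HEK293T. The 2 exceptions in mESCs were in Ythdf2, at GGACG and AGACG. The GGACG site was also in the heart list, above 89.5% of its scores, and at the aligned position of YTHDF2 in HEK293T, with scores of 0.674 in mESCs and 0.835 in HEK293T. Its 21 nt are the same in both species. The median score of reader sites was 0.707 in mESCs, beside 0.746 over the list, and 0.721 in HEK293T, beside 0.716. In heart, 32 of the 45 reader sites were at or above the median score of the list.

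Of the 40 mESC sites, 25 (62.5%, Wilson 95% interval 47.0 to 75.8%) were listed at the same base in heart, which is 55.6% (41.2 to 69.1%) of the heart reader sites. Among the 4 readers with sites in both lists it was 25 of 32 mESC sites (78.1%, 61.2 to 89.0%) and 25 of 45 heart sites (55.6%), beside 68.8% and 51.4% over all genes with sites in both lists. Intervals here and below cover counting error only and treat sites of the same gene as independent. 8 of 9 Ythdf2 sites, 7 of 9 Ythdf1 sites, 8 of 11 Ythdf3 sites and 2 of 3 Ythdc1 sites were shared. The heart list had 0 sites in Igf2bp1, Igf2bp2, Igf2bp3 and Ythdc2. It had 195 sites in Ttn and 23 in Ryr2, the transcripts of the cardiac proteins titin and ryanodine receptor, where the mESC list had 0. The other 5 of 7 heart markers had few or none in heart (2 in Tnnt2, 1 in Myh6 and 0 in Actc1, Myl2 and Nppa), so a transcript expected in heart can lack listed sites. No RNA level of the heart sample was analysed here, so the lack of Igf2bp sites in heart and a low level of these mRNAs cannot be told apart.

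At lower heart inputs fewer reader sites were listed. At 300 ng there were 6, 3 in Ythdf3, 2 in Ythdf2 and 1 in Ythdc1, all of them among the sites at 1 µg and all 6 also in the mESC list. The Ythdf3 site with the highest score at 1 µg, 612 nt into the coding sequence (above 98.9% of the list), was again the highest reader site at 300 ng (above 91.7%). The lists at 100 and 50 ng, of 1112 and 248 sites, had 0 reader sites. Ythdf1, with 11 sites at 1 µg, had 0 at 300 ng, and the highest of its scores at 1 µg stood above 86.3% of the list.

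Of the readers, Ythdc1 had the largest difference in the number of sites between the heart and mESC lists, 10 against 3. Of the 10 heart sites 2 were the shared sites of the last exon and 8 lay between exons 11 and 12 of the longest coding transcript, Ythdc1-201 (GRCm38, chromosome 5, 86828249 to 86829229, plus strand). This stretch is intron 11, of 2432 nt, and counts as exonic because the annotation also holds it within exon 11 (1525 nt) of Ythdc1-208, annotated as a target of nonsense-mediated decay, and within exon 9 (3746 nt) of a transcript annotated as a retained intron. All 8 were at DRACH, 128 to 1108 nt after the end of exon 11, and their scores stood above 15.9 to 72.9% of the heart list. The mESC list had 0 sites in this stretch. Since the gene counts of Ythdc1 take in reads from these exons, spliced and intron-retaining Ythdc1 RNA are not separated in the mESC values above. The paper did separate them, and reported less retention of Ythdc1 intron 11 in KO than in WT mESCs. It found this in RNA-seq coverage and by isoform-specific RT-PCR.

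**Figure D5:**
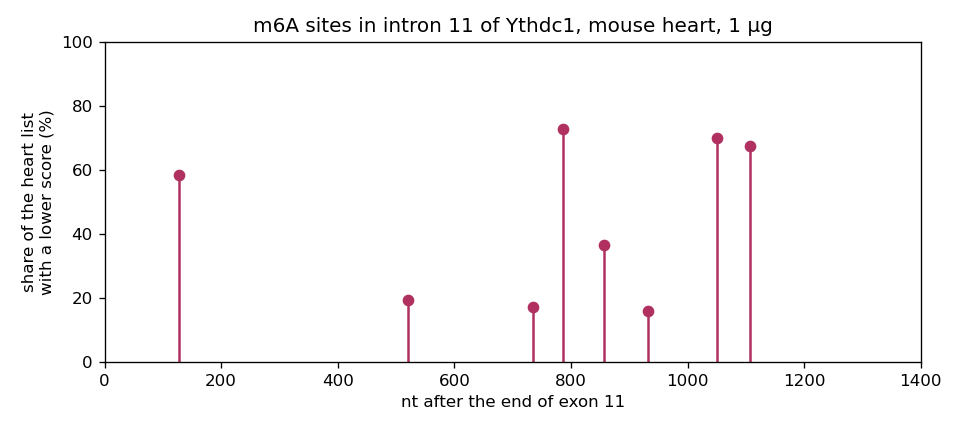
The 8 heart m6A sites in intron 11 of Ythdc1, by distance in nt from the end of exon 11 (x axis) and by the share of the heart list at 1 µg with a lower score (in %, y axis). The sites lie 128 to 1108 nt after exon 11, and 4 of them stand above at least 58.4% of the list.

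Mouse sites were then carried to the human orthologs through alignments of the longest coding transcripts. Of the 29 mESC Ythdf sites, 15 (51.7%, Wilson 95% interval 34.4 to 68.6%) fell on a HEK293T site, and of the 11 sites in other readers 1 did, the 3′ UTR site of Igf2bp3 45 nt after the stop codon. Ythdf2 had 7 of 9, Ythdf3 6 of 11 and Ythdf1 2 of 9. The aligned bases were 93.3% identical for Ythdf2, 94.3% for Ythdf3 and 87.4% for Ythdf1. At the Ythdf1 sites the human base was A in 7 of 9 and formed a DRACH motif in 5, against 8 of 9 for Ythdf2 and 11 of 11 for Ythdf3. Of the heart sites, 8 of 9 in Ythdf2, 4 of 15 in Ythdf3 and 3 of 11 in Ythdf1 fell on a HEK293T site. For 7 of these 8 Ythdf2 sites the 21 nt around the site were the same in both species.

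The Ythdf proteins are close in sequence, with 70.1 to 71.9% identical residues over the aligned mouse proteins, and few of their sites coincided. How often the paralog has an A or a DRACH motif at the aligned column was not counted. A lack of the motif and a lack of a site at the motif are therefore not separated here. In mESCs 2 of the 9 sites of Ythdf1 fell on the alignment column of a Ythdf2 site, 1 of the 9 coding sites of Ythdf2 on that of a Ythdf3 site, and 0 on Ythdf3 from Ythdf1. In heart it was 1 for each of the 3 pairs, and in HEK293T 1, 2 and 2. The 2 HEK293T coincidences of YTHDF1 and YTHDF3 lay in unlike sequence, with 11 and 12 of 21 nt differing, the first with AGACG against AAACT. Both mESC pairs of Ythdf1 and Ythdf2, printed above, have the same motif, GGACA, and their 21 nt differ at 3 and 2 positions. The second pair, at nt 1484 and 1466 of the coding sequences, was also the heart pair. The Ythdf2 and Ythdf3 pair was the same in mESCs and heart, at GAACT. In HEK293T the only pair outside the YTH genes was at nt 128 of the coding sequences of IGF2BP1 and IGF2BP3, at GGACT, with 1 difference in 21 nt.

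In HEK293T the order of the paralogs by sites was not that of mESCs. YTHDF2 had 15 sites, more than 96.0% of the 7133 genes with a site, and YTHDF1 and YTHDF3 had 8 each. IGF2BP1 had 5 sites, 2 of them in the coding part of exon 1 and 1 in the 5′ UTR, IGF2BP2 3, all in the 3′ UTR 102 to 161 nt after the stop codon, and IGF2BP3 3. YTHDC1 had 4, of which 3 lay in exon 4 of its longest coding transcript, while the mESC sites of Ythdc1 were in the last exon. YTHDC2 had 1, 71 nt after its stop codon. Human YTHDF genes have annotated pseudogenes (YTHDF1P1, YTHDF2P1 and YTHDF3P1). The authors kept only miCLIP2 reads that mapped uniquely, and how many reads of stretches shared with pseudogenes this removed was not tested.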

How the data were processed

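Counts per gene were deposited by the authors, who mapped single-end stranded reads to GRCm38 with STAR 2.6.1b and counted them per GENCODE gene with htseq-count 0.12.4 on the reverse strand. The m6A site lists give 1 score per site. In the mESC and HEK293T lists the authors' m6Aboost score is a fraction between 0.5 and 1, made from peaks found in at least 2 replicates, and in the heart lists the scale of the deposited score is not stated and it served only for ranks. Sample titles give the low heart inputs in µg, while the file names and the methods give ng, which was used. The miCLIP2 signal tracks and the KO miCLIP2 samples were not used here.

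Genes were tested with edgeR 4.0.16 in R 4.3.3 (filterByExpr, TMM, quasi-likelihood test, no covariates, Benjamini-Hochberg over all genes tested), a procedure tested on simulated data. Counts on lines that name no gene, which are reads not assigned to a gene, were left out. They made up 38.8 to 42.7% of all counts in WT libraries and 36.7 to 37.6% in KO libraries. Replicates are described as biological, and no source ties WT to KO cultures, yet the deviations of libraries with the same number correlated at 0.12, 0.46 and 0.30 over genes, so the number was also used as a replicate block. With it 4 readers were called, the same as without it, beside 6837 of all genes. Sites were placed in Python 3.11.15 on GENCODE M21 (mouse) and 44 (human), in exons of a single gene and along the longest coding transcript. Transcripts and proteins were aligned with Biopython 1.88. The 8 genes, the lists and the tests were chosen with earlier results of these data known. Named are the 8 genes, Mettl3, the gene most correlated with each over 6 libraries, and called genes of the lists. Alternatives were other scaling, filters, thresholds, DESeq2 1.42.0, leaving out each replicate, other lengths, distances, motifs and score limits. 2 of them, a 2-fold change and the subtraction of the median of all genes, were chosen after seeing the data.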

Additional observations from a re-analysis of the deposited data

How the results depend on the processing

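The number of called readers was 4 in every alternative except a 2-fold change, where it was 1 (Ythdf2), and an adjusted p of 0.05, where it was 5 with Ythdf3. It was 4 to 4 with each replicate left out, over which the edgeR adjusted p reached 0.00685 for Igf2bp3, 0.00525 for Ythdc1, 0.00233 for Ythdf1 and 0.000306 for Ythdf2. Signs turned for Ythdc2, to 0.058 with library size only, 0.066 without WT replicate 3 and 0.0046 without KO replicate 1 (leaving out 1 library gave −0.13 to 0.066), and for Igf2bp2, to 0.0022 with library size only. That scaling moved the median of all genes from −0.02 to 0.08 and the calls from 2687 higher and 1982 lower to 2937 and 1199. No paralog ratio changed sign, also as differences within replicate block pairs or with a prior of 5 counts.

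With the length of the longest coding transcript, shares per kb in WT and KO became 50.7% and 51.5% for Ythdf1, 21.2% and 29.6% for Ythdf2, 28.2% and 18.9% for Ythdf3, 88.1% and 93.5% for Ythdc1, 11.9% and 6.53% for Ythdc2, 35.3% and 44.8% for Igf2bp1, 38.7% and 38.5% for Igf2bp2, and 26.05% and 16.7% for Igf2bp3. Sites at or above the median score of their list numbered 14 of 40 in mESCs, 32 of 45 in heart and 26 of 47 in HEK293T. Within 200 nt of the stop codon lay 17.5% of reader sites in mESCs and 16.2% in heart. Site counts were the same with introns or exons of several genes included, and the shared and aligned sites were the same at wider distances. With 3 libraries a group the exact permutation tests of the ratios cannot go below p = 0.1, and the site lists give no depth.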
